A study of Mus musculus with 9 samples.

Results

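The solute carriers (Slc genes) of 15 families that move phosphate, sulfate, citrate, bicarbonate, protons, chloride, calcium, zinc, iron, manganese and magnesium were followed through the 3 layers of the newborn mouse growth plate. A gene belonged to the set when its symbol was Slc4, Slc8, Slc9, Slc11, Slc12, Slc13, Slc17, Slc20, Slc24, Slc26, Slc30, Slc34, Slc39, Slc40 or Slc41 followed by a and a number. Of 18193 genes named on the array, 88 met this rule, and each was read from 1 probe set, the one with the highest mean over the 9 arrays among those assigned to that gene alone. Of the 88 members, 48 had a mean above the median of the array's probe sets and were tested, and 40 lay below it and were not.

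The tissue was the proximal tibial growth plate of wild-type Black Swiss mice killed on the day of birth, with no treatment in any group. The 3 groups are the round, flat and hypertrophic layers, cut by hand from unfixed frozen sections, and each has 3 arrays. The labels name 3 litters and number the biological replicates of each layer from 1 to 3, and the replicate number is read here as the litter. Each sample was a pool of 18 to 20 tibiae from a single litter, and litters held 9 to 10 pups, so an array gives the mean of a litter and not of a pup. No step of the dissection selected chondrocytes, and cells at the edge of the cartilage could enter a sample.

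Ions cross the membranes of cartilage cells through these carriers, and the growth plate is known for several of them. Its matrix carries sulfate on aggrecan chains, its deepest layer deposits calcium phosphate, and citrate is bound into the mineral of bone. Zinc is required by alkaline phosphatase and by the matrix metalloproteases, and osteoclasts, which resorb the calcified cartilage, exchange chloride for bicarbonate while they secrete acid. Carriers of 1 family often move the same ion in opposite directions or at different membranes, so members of a family differ in role.

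Most tested markers of the round and hypertrophic layers were highest where the labels place them, and no list of flat layer markers was examined. The markers were chosen with earlier results of these data known, so they are not an independent check of the labels. Of 7 tested markers of round chondrocytes, 6 were lower in the hypertrophic than in the round layer and 0 were higher. Of 6 tested markers of hypertrophic chondrocytes, 5 were higher and 0 lower. From round to flat, 6 of the round markers already fell and 5 of the hypertrophic markers already rose. From flat to hypertrophic, 2 of the round markers fell and 5 of the hypertrophic markers rose. The round array of litter 1 stood apart in RNA integrity, with a 3' to 5' ratio of 4.25 for the actin control and 2.59 for the Gapdh control. The other 8 arrays had actin ratios of 1.45 to 2.06 and Gapdh ratios of 0.922 to 1.28. The flat array of litter 3 stood apart in muscle transcripts, with the highest mean level of 18 skeletal muscle markers, 1.50 on a log2 scale centred on the 9 arrays. The values without either array are given beside each call that they end.

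The hypertrophic layer held the most calls. In what follows a difference is on the log2(signal + 26) scale with its standard error, adjusted p is from limma with Benjamini-Hochberg adjustment over the 11313 tested genes, the threshold is 0.05, and means are given ± SD over 3 arrays. Against the flat layer, 10 of the 48 tested transporters were higher in the hypertrophic layer and 2 were lower, where 6.12% and 5.22% of all tested genes were called. Against the round layer, 11 were higher and 4 were lower, with 12.4% and 12.7% called among all tested genes. In the step from round to flat, 5 were higher and 3 were lower, with a background of 8.39% and 8.64%. Altogether 19 of the 48 (39.6%) were called in at least 1 contrast, against 32.7% of all tested genes. The counts by family below rest on few genes and were not tested against this share.

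Grouped by shape, 7 transporters were higher in the hypertrophic layer than in both others, where 4.19% of all tested genes had this shape, and 1 was lower there than in both (background 2.78%). In the round layer 1 was highest and 4 were lowest, with 6.05% and 4.8% of all tested genes. For the flat layer the counts were 1 highest and 2 lowest, with 1.9% and 1.08%. The median difference over the 48 was -0.12 for flat minus round, 0.21 for hypertrophic minus flat and 0.14 for hypertrophic minus round, and over all tested genes it was -0.014, -0.0049 and 0.0062. The arrays give the mean of all cells in a layer, and more cells of a type cannot be told apart from more RNA per cell in any result here.

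**Figure D1:**
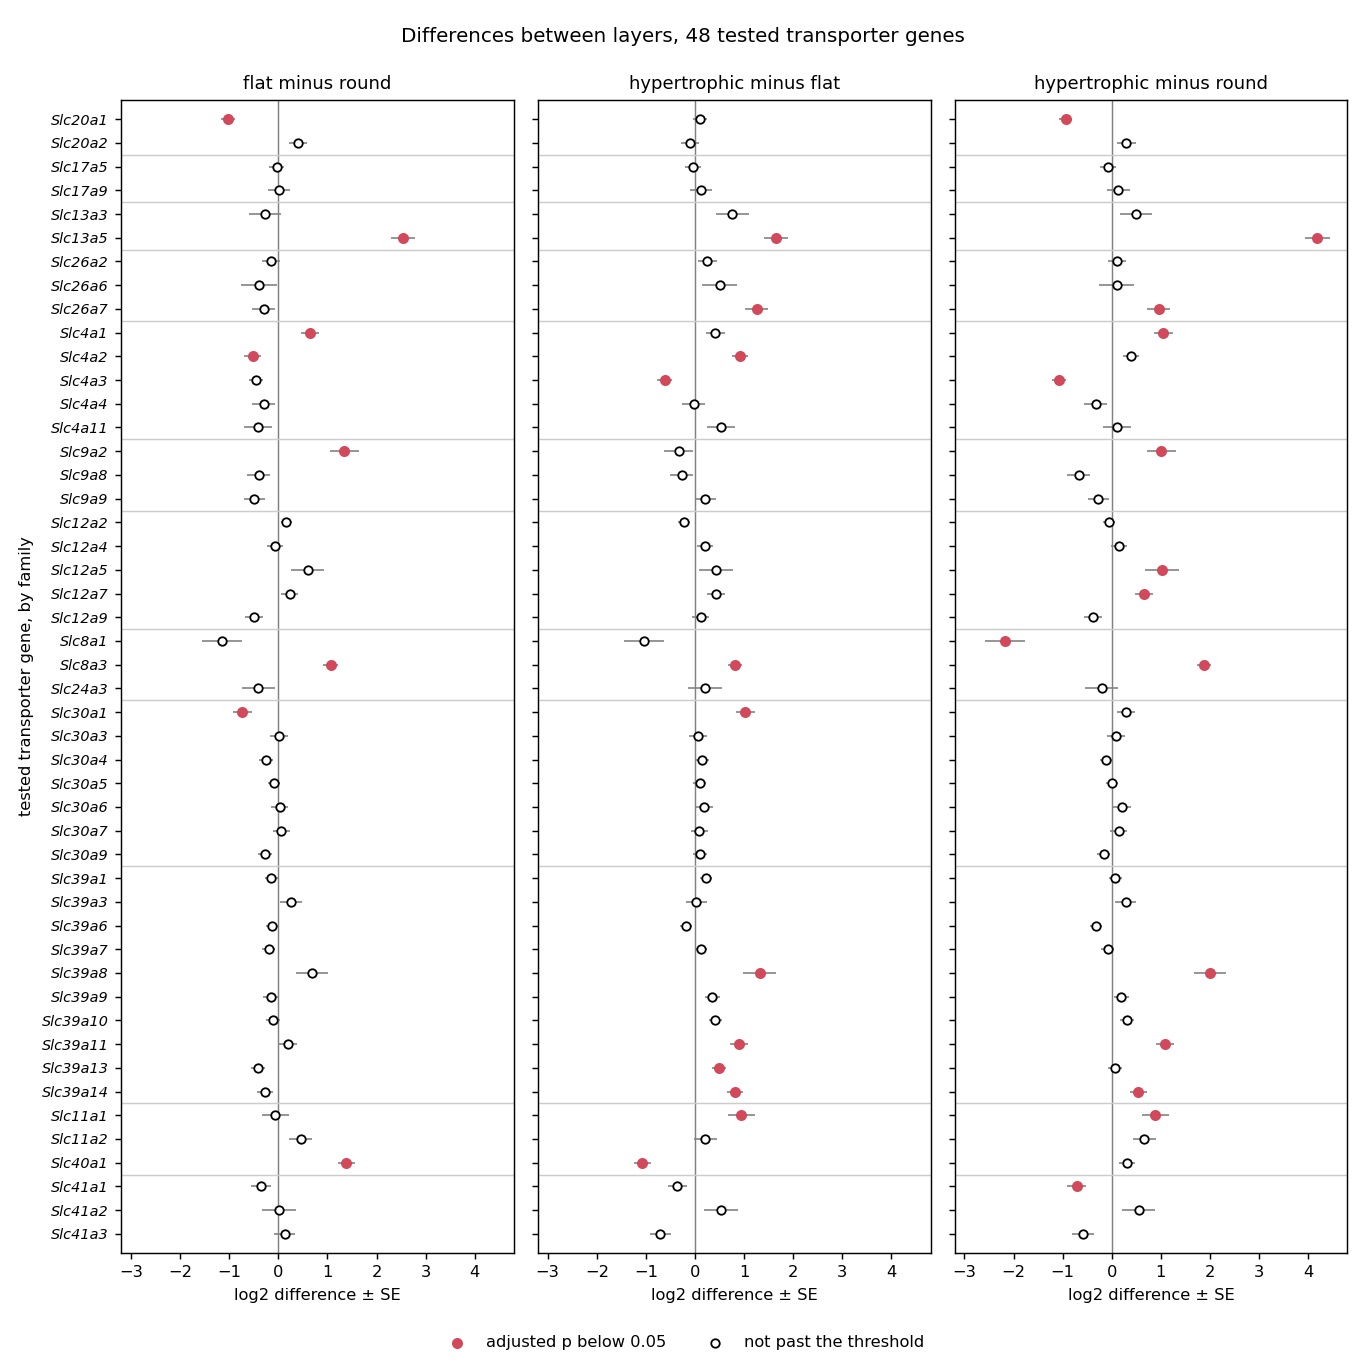
Log2 difference with its standard error for the 48 tested transporters, ordered by family, with 1 panel for each pair of layers. Filled points passed an adjusted p of 0.05 and open points did not; Slc13a5 lies farthest to the right in all 3 panels, at 2.54, 1.65 and 4.19.

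Phosphate carriers of the sodium-coupled Slc20 family were measured at 2 genes. Of these, 1 was called in at least 1 contrast, where 32.7% of all tested genes were. Slc20a1 (PiT1), a sodium-phosphate cotransporter of the plasma membrane, had signals of 3925, 2942 and 4324 in the round layer, 1843, 1693 and 1817 in the flat layer and 1685, 1691 and 2426 in the hypertrophic layer, in the order of litters 1 to 3. All 3 round arrays lay above all 6 others, and the flat and hypertrophic arrays overlapped. The layer means were 3730.0 ± 711, 1784 ± 80.1 and 1934 ± 426. Slc20a1 fell from round to flat by 1.03 ± 0.14 (adjusted p = 0.000337), which is a 2.05-fold lower level. It was also lower in the hypertrophic than in the round layer (-0.94 ± 0.14, adjusted p = 0.000394), while hypertrophic minus flat was 0.09 ± 0.14 (adjusted p = 0.747). Both calls held in each of 21 alternative settings, among them the removal of any 1 array.

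Slc20a2 (PiT2), the other broadly expressed sodium-phosphate cotransporter, passed the threshold in no contrast. Its signals were 1109, 853 and 745 in the round layer, 1160.1, 931 and 1556 in the flat layer and 1106, 989 and 1224 in the hypertrophic layer, and the layers overlapped in each pair. Flat minus round was 0.41 ± 0.18 (adjusted p = 0.16), with a 95% interval of 0.01 to 0.81. Slc34a1, the phosphate carrier of the kidney proximal tubule, and Slc34a2, that of gut and lung epithelium, were below the filter and were not tested. Slc34a1 had layer means of 49.5 ± 32, 36.4 ± 35.6 and 79.6 ± 19.8, and those of Slc34a2 were 135 ± 44.4, 88.6 ± 35.7 and 108 ± 25.7, in the order round, flat, hypertrophic. A level at or below the filter, which equals a signal of 122, is not a measure of absence.

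Among 10 tested genes of phosphate and pyrophosphate handling and of mineralised matrix, 5 rose and 3 fell from round to flat. Alpl, Phex and Dmp1 of this list are also osteoblast markers here, and Ibsp is also a hypertrophic chondrocyte marker. Its counts are therefore not independent of those markers. From flat to hypertrophic 8 were higher and 0 lower, and from round to hypertrophic 7 were higher and 1 lower. Over all tested genes, 8.39% were higher and 8.64% lower from round to flat, 6.12% and 5.22% from flat to hypertrophic, and 12.4% and 12.7% from round to hypertrophic. Alpl, the alkaline phosphatase that releases phosphate from pyrophosphate, had layer means of 598 ± 125, 7429.8 ± 2925 and 11898 ± 1229.5 and rose by 3.52 ± 0.16 (adjusted p = 4.42e-07) from round to flat. Ank, which brings pyrophosphate out of the cell, had the opposite step there (-0.79 ± 0.16, adjusted p = 0.00482) and rose from flat to hypertrophic (1.41 ± 0.16, adjusted p = 0.000205). Phex, a membrane peptidase whose loss causes phosphate wasting, and Dmp1, a phosphoprotein of mineralised matrix, rose by 2.55 and 2.81 in that step (adjusted p = 1.74e-05 and 1.89e-05).

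The promoters of a few members are shown here because these genes carry the phosphate, citrate and zinc results. RefSeq (GRCm38.p6) gave a promoter for 36 of the 48 tested members and 14 of the 19 called ones, as the 250 bases before an annotated start, printed 5′ to 3′ on the gene's strand. On both strands a script searched the Runx core TGTGGT, which runt-domain factors bind, and the metal response core, TGCGCNC or TGCACNC, which the zinc sensor Mtf1 binds. Of 32851 promoters of this length, 14.0% held the first and 21.4% the second, and of the 47 promoters of tested members 8.51% and 36.2%, with no promoter of a member where both overlapped. Capitals mark the matched letters, and a match is a description of the sequence and not a site shown to be bound.
Slc20a1 (chr2:129198523-129198772, plus strand): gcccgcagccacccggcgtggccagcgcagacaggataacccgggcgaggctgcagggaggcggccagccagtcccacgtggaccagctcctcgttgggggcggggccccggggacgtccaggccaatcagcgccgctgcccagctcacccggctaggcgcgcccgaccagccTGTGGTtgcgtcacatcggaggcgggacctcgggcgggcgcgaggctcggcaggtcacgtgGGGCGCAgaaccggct
Slc13a5 (chr11:72267162-72267411, minus strand): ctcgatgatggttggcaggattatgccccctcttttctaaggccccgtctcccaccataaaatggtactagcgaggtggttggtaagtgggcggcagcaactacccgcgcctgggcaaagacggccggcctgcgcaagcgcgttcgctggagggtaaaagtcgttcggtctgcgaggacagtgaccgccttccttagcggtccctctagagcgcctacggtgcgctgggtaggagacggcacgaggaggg
Slc30a1 (chr1:191906531-191906780, plus strand): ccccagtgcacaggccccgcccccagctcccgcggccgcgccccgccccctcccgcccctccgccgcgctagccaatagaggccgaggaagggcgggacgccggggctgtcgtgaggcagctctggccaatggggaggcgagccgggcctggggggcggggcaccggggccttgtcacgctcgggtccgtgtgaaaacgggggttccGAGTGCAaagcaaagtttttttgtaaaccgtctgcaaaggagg
Slc39a8 (chr3:135825407-135825656, plus strand): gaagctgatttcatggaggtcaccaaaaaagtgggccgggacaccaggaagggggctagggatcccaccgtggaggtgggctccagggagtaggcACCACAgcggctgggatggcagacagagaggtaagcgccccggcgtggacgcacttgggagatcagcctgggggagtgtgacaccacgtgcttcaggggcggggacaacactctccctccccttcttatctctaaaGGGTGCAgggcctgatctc

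The Slc20a1 window held the Runx core from -77 to -72 and the metal response core, on the minus strand, from -16 to -10, counted from the base before the start. Slc13a5 held neither in this window, and neither in that of its second annotated start. The second annotated start of Slc20a1 had neither. Slc30a1 held the metal response core on the minus strand from -43 to -37. Slc39a8 held both on the minus strand, the Runx core from -155 to -150 and the metal response core from -19 to -13. The window of its other annotated start held the Runx core alone, from -140 to -135 on the minus strand.

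Slc13a5 (NaCT), which imports citrate with sodium, had the largest absolute difference of the 48 tested members in each of the 3 contrasts. Its signals were 400.1, 293 and 308 in the round layer, 2419, 3258 and 1086 in the flat layer and 6524, 6785 and 6164 in the hypertrophic layer. Every hypertrophic array lay above every flat array and every flat array above every round array, and within the flat layer litter 3 was the lowest. The layer means were 334 ± 57.9, 2254 ± 1095 and 6491 ± 312. Slc13a5 rose by 2.54 ± 0.25 (adjusted p = 3.14e-05) from round to flat, a 5.82-fold difference, and by 1.65 ± 0.25 (adjusted p = 0.0012) from flat to hypertrophic, a 3.14-fold difference. Between round and hypertrophic it rose by 4.19 ± 0.25 (adjusted p = 1.87e-07), or 18.3-fold. With the muscle score of each array as a covariate the 2 single steps missed the threshold, at 2.39 (adjusted p = 0.0536) and 1.76 (adjusted p = 0.098), and the round to hypertrophic difference kept its call.

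Slc13a3 (NaDC3), a carrier of dicarboxylates such as succinate, had signals of 206, 142 and 211 in the round layer, 252, 177 and 66.4 in the flat layer and 349, 282 and 194 in the hypertrophic layer and passed in no contrast. Its hypertrophic minus flat value was 0.76 ± 0.33 (adjusted p = 0.17), the largest difference among the 29 tested members with no call. Of 12 tested enzymes and carriers of citrate metabolism, 3 rose and 0 fell from round to flat, 0 passed either way from flat to hypertrophic, and 5 were higher and 0 lower in the hypertrophic than in the round layer. For all tested genes the higher and lower shares were 8.39% and 8.64%, 6.12% and 5.22%, and 12.4% and 12.7%. Idh3a, a subunit of the mitochondrial isocitrate dehydrogenase, was 1.26 higher in the flat layer (adjusted p = 8.06e-05), and Slc25a1, which exports citrate from mitochondria, was 0.56 higher in the hypertrophic than in the round layer (adjusted p = 0.0167).

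**Figure D2:**
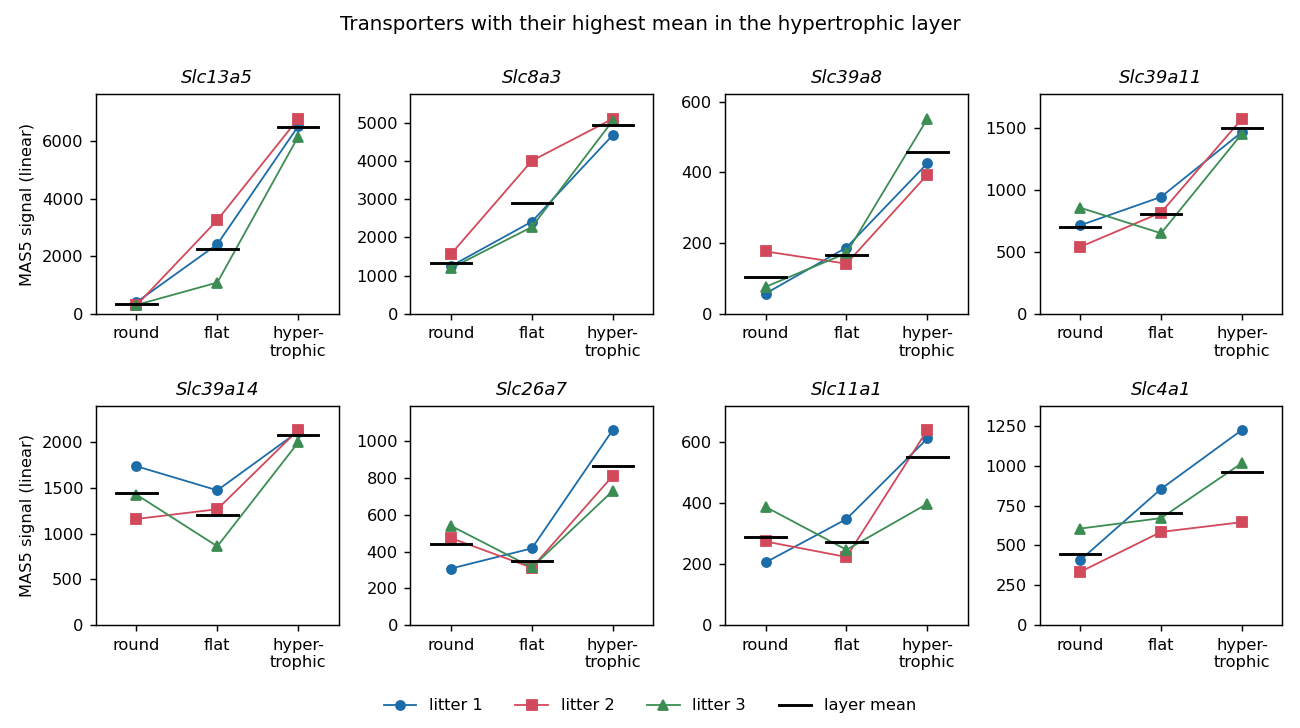
MAS5 signal (linear axis from 0) by layer for 7 members called higher in the hypertrophic layer than in both others, and Slc4a1, 1 line per litter, with the layer mean as a black bar. The lines of Slc13a5 climb from 293 to 400.1 in the round layer to 6164 to 6785 in the hypertrophic layer.

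Of 3 tested members of the sulfate and anion exchanger family Slc26, 1 was called in at least 1 contrast, beside 32.7% of all tested genes. It was not the sulfate carrier of cartilage. Slc26a2, the sulfate transporter whose loss causes diastrophic dysplasia, had signals of 1117, 813 and 897 in the round layer, 1089.8, 1035 and 524 in the flat layer and 1228, 1034 and 800.3 in the hypertrophic layer, and the layers overlapped in each pair. Its flat minus round value was -0.15 ± 0.19 (adjusted p = 0.643), with a 95% interval of -0.55 to 0.26, and hypertrophic minus round was 0.10 ± 0.19 (adjusted p = 0.726), with an interval of -0.30 to 0.51. Differences within these intervals could not be told from 0 with 3 arrays a layer. Slc26a7, an anion exchanger of the kidney and thyroid, had signals of 307, 473 and 540.3 in the round layer, 417, 312 and 314 in the flat layer and 1062, 813 and 731 in the hypertrophic layer. All 3 hypertrophic arrays lay above the 6 others. It rose from flat to hypertrophic by 1.25 ± 0.23 (adjusted p = 0.00475), and was higher in the hypertrophic than in the round layer by 0.96 ± 0.23 (adjusted p = 0.0102). That last difference had adjusted p = 0.0773 without the hypertrophic 1 array, and without the round 1 array it was 0.59 (adjusted p = 0.0333). Without the round 1 array Slc26a7 also fell from round to flat (adjusted p = 0.0273). The mean of its 2 probe sets gave 0.52 for hypertrophic minus flat (adjusted p = 0.314). The third tested member of the family, Slc26a6, passed in no contrast, and 7 members were not tested.

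Of 17 tested genes that activate, transfer or remove sulfate, 2 were higher and 3 lower in flat minus round, 3 higher and 1 lower in hypertrophic minus flat, and 5 higher and 2 lower in hypertrophic minus round. The background was 8.39% and 8.64%, 6.12% and 5.22%, and 12.4% and 12.7% in the same order, and the counts were not tested against it. Tpst1, which sulfates tyrosines, fell by 1.65 from round to hypertrophic (adjusted p = 7.71e-06), and Arsb, a lysosomal sulfatase, rose by 1.32 (adjusted p = 1.77e-05). Chst11, which sulfates chondroitin, rose by 0.85 (adjusted p = 0.00227).

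Of the 5 tested bicarbonate carriers, 3 were called in at least 1 contrast, each with a different shape. Among all tested genes 32.7% were called in any contrast. Slc4a2 (AE2), the chloride-bicarbonate exchanger that osteoclasts need for resorption, had signals of 1505, 1393 and 1116 in the round layer, 798, 909.8 and 1051 in the flat layer and 1875, 1919.8 and 1474 in the hypertrophic layer. The flat arrays lay below all round and hypertrophic arrays, and the means were 1338 ± 200.3, 919.7 ± 127 and 1756 ± 246. It rose from flat to hypertrophic by 0.91 ± 0.17 (adjusted p = 0.00396). The fall from round to flat was -0.53 ± 0.17 (adjusted p = 0.0473), and its adjusted p was 0.141, 0.14, 0.248, 0.15, 0.0627, 0.0716 and 0.0652 without the round 1, round 2, flat 1, flat 2, hypertrophic 1, hypertrophic 2 and hypertrophic 3 arrays, respectively.

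Slc4a3 (AE3), a chloride-bicarbonate exchanger of brain and heart, was the 1 member lower in the hypertrophic layer than in both others. Its signals were 1047, 1076 and 1098 in the round layer, 822, 686 and 826 in the flat layer and 472, 514 and 503 in the hypertrophic layer, with no overlap between any layers. It fell by 1.07 ± 0.15 from round to hypertrophic (adjusted p = 0.000193) and by 0.62 ± 0.15 from flat to hypertrophic (adjusted p = 0.0172). Flat minus round was -0.46 ± 0.15, just outside the threshold (adjusted p = 0.0521). The flat to hypertrophic step had adjusted p = 0.104, 0.0736, 0.0945 and 0.0861 without the flat 1, flat 3, hypertrophic 1 and hypertrophic 3 arrays, respectively. With the mean of its 2 probe sets hypertrophic minus round was -0.78 (adjusted p = 0.0655) and hypertrophic minus flat was -0.18 (adjusted p = 0.76). The second probe set, with a mean signal of 84.6, below the filter, gave 0.25 for hypertrophic minus flat, the opposite sign.

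Slc4a1 (AE1, band 3), the anion exchanger of red cells, had signals of 407, 334 and 606 in the round layer, 856, 585 and 672 in the flat layer and 1227, 647 and 1018 in the hypertrophic layer. All round arrays lay below all hypertrophic arrays, with round litter 3 close to hypertrophic litter 2, and the round and flat arrays overlapped. It was 1.05 ± 0.19 higher in the hypertrophic than in the round layer (adjusted p = 0.00157) and 0.64 ± 0.19 higher in the flat layer than in the round (adjusted p = 0.0376). The flat difference had adjusted p = 0.142, 0.107, 0.155, 0.145, 0.0509 and 0.0626 without the round 1, round 2, flat 1, flat 2, hypertrophic 2 and hypertrophic 3 arrays, respectively, and its size without round 1 was 0.43. The mean of 3 probe sets left the hypertrophic difference at 0.63 (adjusted p = 0.0917). The summed signal of the 8 erythroid markers named on the array ranged over 3512 to 4124 on the round arrays, 3941 to 4563 on the flat arrays and 4890 to 5682 on the hypertrophic arrays. Of these, 2 were tested, and 1 was called, higher in the hypertrophic than in the round layer. The other erythroid markers were below the filter. The part of erythroid cells in the Slc4a1 result was not tested.

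Sodium-proton exchangers were measured at 3 tested genes, and 1 was called in at least 1 contrast, beside 32.7% of all tested genes. Slc9a2 (NHE2), an exchanger of epithelial cells, had signals of 86, 58.3 and 73.9 in the round layer, 199, 202 and 273 in the flat layer and 151, 146 and 224 in the hypertrophic layer. The 3 round arrays lay below the 6 others. Slc9a2 rose from round to flat by 1.34 ± 0.30 (adjusted p = 0.0079) and was higher in the hypertrophic than in the round layer by 1.01 ± 0.30 (adjusted p = 0.0258). The latter had adjusted p = 0.0767, 0.103, 0.0608, 0.0817 and 0.129 without the round 2, round 3, hypertrophic 1, hypertrophic 2 and hypertrophic 3 arrays, respectively. In a limma fit with no filter on low signals it had adjusted p = 0.0573. The flat difference was 0.75 with the muscle score as a covariate (adjusted p = 0.669). Slc9a8 and Slc9a9, exchangers of the Golgi and of endosomes, passed in no contrast. Slc4a7 is not analysed here.

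Of 14 tested carbonic anhydrases and proton pump subunits, 4 were higher and 2 lower in flat minus round, 5 higher and 2 lower in hypertrophic minus flat, and 8 higher and 2 lower in hypertrophic minus round, beside 8.39% and 8.64%, 6.12% and 5.22%, and 12.4% and 12.7% of all tested genes. Atp6v0d2, a proton pump subunit of osteoclasts, rose by 3.83 from round to hypertrophic (adjusted p = 4.09e-07), and Car2, the carbonic anhydrase that osteoclasts use to form acid, rose by 2.49 (adjusted p = 5.83e-06). Car9, a membrane carbonic anhydrase induced by hypoxia, fell by 2.75 (adjusted p = 7.07e-07). The summed signal of 11 osteoclast markers ranged over 7201 to 8827 on the round arrays, 14276 to 19263 on the flat arrays and 76294 to 100432 on the hypertrophic arrays. From flat to hypertrophic 9 of its 10 tested members were higher and 0 lower, in the same step in which Slc4a2 rose, and Atp6v0d2 is itself one of them. The part of osteoclasts in the differences of Slc4a2 and the other carriers was not tested.

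Of 5 tested cation-chloride cotransporters, 2 were called, both in hypertrophic minus round, where 32.7% of all tested genes were called in any contrast. Slc12a7 (KCC4), which carries potassium and chloride out of the cell, had signals of 459, 553 and 623 in the round layer, 658, 642 and 613 in the flat layer and 1036, 828 and 757 in the hypertrophic layer and was 0.65 ± 0.18 higher in the hypertrophic layer (adjusted p = 0.0168). All hypertrophic arrays lay above all round arrays. Its adjusted p was 0.0698, 0.0516, 0.121 and 0.0557 without the round 1, round 2, hypertrophic 1 and hypertrophic 2 arrays, respectively. Slc12a5 (KCC2), the potassium-chloride cotransporter of neurons, had signals of 75.2, 97.7 and 93.8 in the round layer, 96.5, 262 and 122 in the flat layer and 247, 214 and 168 in the hypertrophic layer and a difference of 1.02 ± 0.34 (adjusted p = 0.0438). Its hypertrophic arrays lay above its round arrays, and the flat arrays spanned both. Its adjusted p was 0.091, 0.162, 0.0549, 0.0519, 0.24, 0.067 and 0.0992 without the round 1, round 2, round 3, flat 3, hypertrophic 1, hypertrophic 2 and hypertrophic 3 arrays, respectively. With no filter on low signals the adjusted p of Slc12a5 was 0.0837. Slc12a2 (NKCC1), which brings sodium, potassium and chloride into the cell, had layer means of 2715 ± 132, 3041 ± 28.8 and 2617 ± 262 and passed in no contrast. Its 95% interval for hypertrophic minus round was -0.32 to 0.20.

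The 2 tested sodium-calcium exchangers of the Slc8 family moved in opposite directions, and Slc24a3, a potassium-dependent exchanger, passed in no contrast. Slc8a3 (NCX3), an exchanger of brain and skeletal muscle, had signals of 1247, 1561 and 1193 in the round layer, 2411, 4002 and 2270.5 in the flat layer and 4675, 5103 and 5054 in the hypertrophic layer. Each layer lay wholly above the one before it. Slc8a3 rose by 1.06 ± 0.15 (adjusted p = 0.000408) from round to flat and by 0.81 ± 0.15 (adjusted p = 0.0044) from flat to hypertrophic, and by 1.88 ± 0.15 (adjusted p = 2.36e-06), or 3.68-fold, over both. The round to hypertrophic call held in each of the 21 alternatives. With the muscle score as a covariate the flat minus round value was 1.12 (adjusted p = 0.123) and hypertrophic minus flat was 0.77 (adjusted p = 0.213). The mean of its 2 probe sets gave 0.57 for hypertrophic minus flat (adjusted p = 0.163).

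Slc8a1 (NCX1), the exchanger of heart muscle, had signals of 254, 338 and 323 in the round layer, 186, 79 and 121 in the flat layer and 72.9, 7.9 and 88 in the hypertrophic layer. Round arrays were highest and did not overlap the others, and all 3 hypertrophic arrays lay below the filter of 122, with that of litter 2 close to 0. The round to hypertrophic difference was -2.18 ± 0.41 (adjusted p = 0.00185), and flat minus round was -1.15 ± 0.41 (adjusted p = 0.0746). Because the hypertrophic signals are so low, the size of the first depends on the pseudocount and was -1.39 (adjusted p = 0.001) with 4 times the pseudocount. Flat minus round had adjusted p = 0.0475 without the round 1 array and 0.0379 without the hypertrophic 2 array. Slc8a1 was the member nearest to the filter among those tested, with a mean of 7.25 against a filter of 7.21, and Slc12a5 was next at 7.38. Slc26a11 and Slc9a5 lay just below it, at 7.06 and 7.05.

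Among 13 tested sodium, potassium and calcium pumps and the kinases of the chloride cotransporters, 1 was higher and 2 lower in flat minus round, 2 higher and 2 lower in hypertrophic minus flat, and 2 higher and 3 lower in hypertrophic minus round. Shares over all tested genes were 8.39% and 8.64%, 6.12% and 5.22%, and 12.4% and 12.7%, and the counts were not tested against them. Atp2a1, the calcium pump of the sarcoplasmic reticulum of fast muscle, rose by 1.75 from round to flat (adjusted p = 0.000282) and fell by 1.21 from flat to hypertrophic (adjusted p = 0.00548). Atp2a1 is also among the 18 skeletal muscle markers that form the muscle score, so it is not a reading apart from them. Atp2b4, a calcium pump of the plasma membrane, fell by 1.34 from round to hypertrophic (adjusted p = 0.00333). Atp1b3, a subunit of the sodium pump, rose by 0.90 (adjusted p = 9.85e-05).

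Among the 10 tested zinc importers of the Slc39 (ZIP) family, 4 were called in at least 1 contrast, beside 32.7% of all tested genes. Of 10 tested members, 4 were higher in the hypertrophic than in the flat layer and 3 higher than in the round layer, 0 were lower in either, and 0 passed from round to flat. Over all tested genes 6.12% were higher and 5.22% lower against the flat layer, and 12.4% and 12.7% against the round layer. Slc39a8 (ZIP8), which imports zinc and manganese, had signals of 57.1, 176 and 76.2 in the round layer, 187, 142 and 172 in the flat layer and 426, 394 and 552 in the hypertrophic layer. The 3 hypertrophic arrays lay above the 6 others, and the round and flat arrays overlapped. It rose by 2.0 ± 0.33 (adjusted p = 0.000833) over the round layer, 3.99-fold, and by 1.32 ± 0.33 (adjusted p = 0.0228) over the flat layer. The first call held in each of the 19 alternatives in which Slc39a8 was tested. The second had adjusted p = 0.109, 0.072, 0.114 and 0.155 without the flat 2, flat 3, hypertrophic 1 and hypertrophic 3 arrays, respectively. Without the round 2 array, flat minus round also passed (adjusted p = 0.0306, against 0.192 with all arrays).

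Slc39a11 (ZIP11), a zinc carrier of internal membranes, had signals of 712, 539 and 855 in the round layer, 941, 816 and 649 in the flat layer and 1465, 1572 and 1451 in the hypertrophic layer. Again the 3 hypertrophic arrays were above the 6 others. It was 1.09 ± 0.19 higher in the hypertrophic than in the round layer (adjusted p = 0.00104), a call that held in the 21 alternatives. The difference from the flat layer was 0.89 ± 0.19 (adjusted p = 0.00883), with adjusted p = 0.0507 and 0.0677 without the flat 3 and hypertrophic 2 arrays, respectively. Slc39a14 (ZIP14), which imports zinc, iron and manganese, had signals of 1737, 1159.9 and 1426 in the round layer, 1473, 1266 and 861 in the flat layer and 2116, 2134 and 1997 in the hypertrophic layer, with the hypertrophic arrays above the 6 others. Hypertrophic minus flat was 0.82 ± 0.17 (adjusted p = 0.00877), and hypertrophic minus round was 0.54 ± 0.17 (adjusted p = 0.0346). The first had adjusted p = 0.062 and 0.0665 without the hypertrophic 2 and hypertrophic 3 arrays, respectively, and the second 0.214, 0.16 and 0.16 without the round 2, hypertrophic 2 and hypertrophic 3 arrays, respectively.

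Slc39a13 (ZIP13), a carrier of secretory vesicles whose loss causes a skeletal form of Ehlers-Danlos syndrome, had signals of 1606, 1369.8 and 1356 in the round layer, 1021, 1279 and 955 in the flat layer and 1591, 1488 and 1473 in the hypertrophic layer. The flat arrays lay below all others. Its rise from flat to hypertrophic was 0.48 ± 0.14 (adjusted p = 0.0485), close to the threshold, with adjusted p = 0.0618, 0.0531, 0.229, 0.159, 0.171, 0.114 and 0.201 without the round 2, round 3, flat 1, flat 3, hypertrophic 1, hypertrophic 2 and hypertrophic 3 arrays, respectively. Flat minus round was -0.41 ± 0.14 (adjusted p = 0.0707), and it passed without the flat 2 array (adjusted p = 0.0305). The other 6 tested importers, Slc39a1, Slc39a3, Slc39a6, Slc39a7, Slc39a9 and Slc39a10, passed in no contrast, although Slc39a10 passed in hypertrophic minus flat without the round 1 array (adjusted p = 0.0296).

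Zinc exporters and vesicle loaders of the Slc30 (ZnT) family were called at 1 of 7 tested genes, against 32.7% of all tested genes in any contrast. Slc30a1 (ZnT1), the zinc exporter of the plasma membrane and a known target of the zinc sensor Mtf1, had signals of 862, 520.0 and 371 in the round layer, 350.0, 342 and 276 in the flat layer and 946, 672 and 489.7 in the hypertrophic layer. Within each litter the flat array was the lowest of the 3, and litter 1 was the highest in every layer. The flat arrays lay below all others. Slc30a1 fell from round to flat by 0.73 ± 0.19 (adjusted p = 0.0192) and rose from flat to hypertrophic by 1.02 ± 0.19 (adjusted p = 0.00462). The fall had adjusted p = 0.0835, 0.0514 and 0.125 without the round 1, round 2 and flat 1 arrays, respectively. With no block for litter, the fall and the rise had adjusted p = 0.16 and 0.0784. With the mean of its 2 probe sets flat minus round was -0.56 (adjusted p = 0.243) and hypertrophic minus flat was 0.25 (adjusted p = 0.679). The second probe set, with a mean signal of 121 just under the filter of 122, gave -0.52 for hypertrophic minus flat and -0.38 for flat minus round, so the 2 probe sets differ in sign in the first.

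Slc30a5 and Slc30a7, which load zinc into the secretory pathway and supply alkaline phosphatase, passed in no contrast. Slc30a5 had layer means of 2123 ± 128, 1999 ± 207 and 2133 ± 235, and its 95% interval for hypertrophic minus round was -0.28 to 0.28. Slc30a7 had means of 1277 ± 237, 1333 ± 279 and 1401 ± 165 and an interval of -0.24 to 0.52. Slc30a2 (ZnT2), a vesicular zinc carrier of secretory glands, was below the filter on its mean and was not tested, but had signals of 82.6, 87.8 and 65.6 in the round layer, 43, 16.3 and 39.3 in the flat layer and 319, 205 and 176 in the hypertrophic layer. The hypertrophic arrays lay above the round arrays and these above the flat arrays. In a fit with no filter it was higher in the hypertrophic than in the flat layer (2.13 ± 0.39, adjusted p = 0.00509) and than in the round layer (1.28 ± 0.39, adjusted p = 0.0421). This gene, like Slc12a8 (hypertrophic minus round 1.75 ± 0.40, adjusted p = 0.0103 in the same fit), was singled out after its values were seen.

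Among 10 tested genes that bind zinc or copper or respond to zinc, 1 was higher and 1 lower in flat minus round, 2 higher and 0 lower in hypertrophic minus flat, and 2 higher and 1 lower in hypertrophic minus round, beside the 8.39% and 8.64%, 6.12% and 5.22%, and 12.4% and 12.7% of all tested genes. Mt3 and Mt2, metal-binding metallothioneins, went opposite ways. Mt3 rose by 3.18 ± 0.37 (adjusted p = 4.71e-05) from round to hypertrophic, and Mt2 fell by 1.33 ± 0.21 (adjusted p = 0.000621).

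Slc40a1 (ferroportin), the exporter of iron from cells, was the 1 member highest in the flat layer. Its signals were 1788, 2277 and 2337 in the round layer, 6519.9, 5980.2 and 4425 in the flat layer and 2656, 2389 and 2883 in the hypertrophic layer. The flat arrays lay above all others, with litter 3 the lowest of them, and the hypertrophic arrays lay just above the round arrays. The means were 2134 ± 301, 5642 ± 1088 and 2643 ± 247. Slc40a1 rose by 1.38 ± 0.17 (adjusted p = 0.00016) from round to flat, 2.61-fold, and fell by 1.07 ± 0.17 from flat to hypertrophic (adjusted p = 0.00167), 2.1-fold. Both calls held in the 21 alternatives. Skeletal muscle markers had the same shape. Of 18 tested, 18 rose from round to flat and 16 fell from flat to hypertrophic. With the muscle score of each array as a covariate the Slc40a1 differences were 1.91 (adjusted p = 0.0183) and -1.47 (adjusted p = 0.0339).

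Slc11a1 (Nramp1), a metal carrier of the phagosomes of macrophages, had signals of 205, 273 and 386 in the round layer, 347, 223 and 246 in the flat layer and 610.0, 638 and 397 in the hypertrophic layer. The hypertrophic arrays lay above all others, with litter 3 close to the highest round array. Hypertrophic minus flat was 0.94 ± 0.28 (adjusted p = 0.047), and hypertrophic minus round was 0.88 ± 0.28 (adjusted p = 0.0345). The first had adjusted p = 0.0629, 0.0519, 0.183, 0.144, 0.2 and 0.242 without the round 2, flat 1, flat 2, flat 3, hypertrophic 1 and hypertrophic 2 arrays, respectively. The second had adjusted p = 0.162, 0.104, 0.145 and 0.189 without the round 1, round 2, hypertrophic 1 and hypertrophic 2 arrays, respectively, and its size without round 1 was 0.55. The summed signal of 13 macrophage markers ranged over 13314 to 14486 on the round arrays, 15201 to 17650 on the flat arrays and 21222 to 26320 on the hypertrophic arrays. From flat to hypertrophic 3 of 10 tested macrophage markers were higher and 1 lower. Although the sum was higher, the median difference of the 10 was -0.15 for hypertrophic minus flat and 0.04 for hypertrophic minus round. Of 4 tested neutrophil markers, 4 were higher in the hypertrophic than in the round layer and 2 than in the flat layer, and the summed signal of the 9 on the array ranged over 2328 to 3179 on the round arrays, 4896 to 11670 on the flat arrays and 7221 to 16474 on the hypertrophic arrays. The part of macrophages, neutrophils or osteoclasts in the Slc11a1 result was not tested.

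Slc11a2 (DMT1), the importer of ferrous iron, had signals of 277, 217 and 179 in the round layer, 418, 215 and 334 in the flat layer and 421, 394 and 294 in the hypertrophic layer. Its hypertrophic minus round value of 0.67 ± 0.23 was outside the threshold (adjusted p = 0.0565) and passed without the flat 2 array (adjusted p = 0.0296). Of 18 tested genes of iron uptake, storage and control, 3 were higher and 1 lower in flat minus round, 2 higher and 2 lower in hypertrophic minus flat, and 5 higher and 1 lower in hypertrophic minus round. Among all tested genes these shares were 8.39% and 8.64%, 6.12% and 5.22%, and 12.4% and 12.7%. Cp, the ferroxidase ceruloplasmin that works with ferroportin, rose in both steps and by 3.55 ± 0.19 (adjusted p = 9.13e-08) in all. Tfrc, the receptor that brings in transferrin iron, rose from round to flat by 1.26 ± 0.14 (adjusted p = 7.97e-05) and fell from flat to hypertrophic by 0.72 ± 0.14 (adjusted p = 0.00542). Hjv (hemojuvelin), an iron regulator of liver and skeletal muscle, went the same ways, by 1.48 (adjusted p = 0.000361) and -0.98 (adjusted p = 0.00888).

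**Figure D3:**
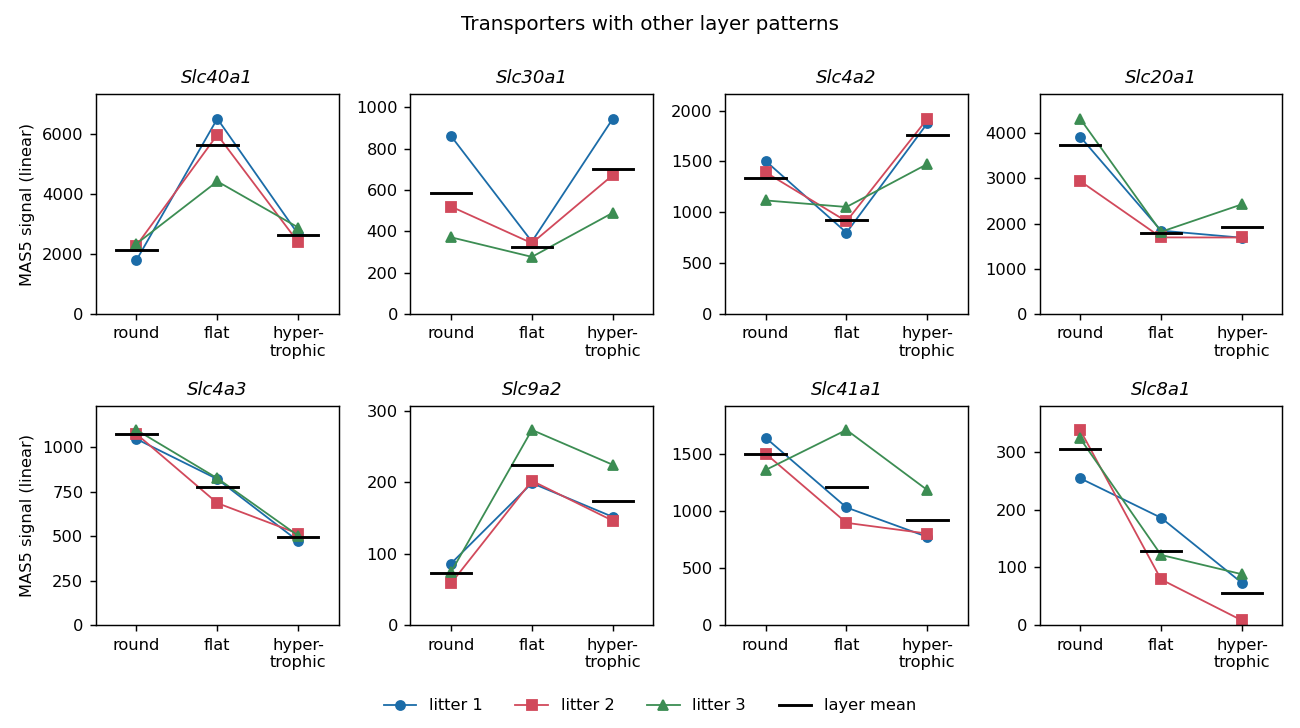
MAS5 signal (linear axis from 0) by layer for members with another shape, 1 line per litter, with the layer mean as a black bar. Slc20a1 is highest in the round layer, Slc40a1 in the flat layer, Slc4a2 and Slc30a1 are lowest in the flat layer, and Slc4a3 is lowest in the hypertrophic layer.

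Of the 3 magnesium carriers of the Slc41 family, 1 was called in at least 1 contrast, beside 32.7% of all tested genes. Slc41a1, a sodium-coupled magnesium exporter, had signals of 1642, 1503 and 1358 in the round layer, 1030.0, 895 and 1709.9 in the flat layer and 772, 801 and 1182 in the hypertrophic layer. The round arrays lay above all hypertrophic arrays, and the flat array of litter 3 was the highest of all 9. Slc41a1 fell from round to hypertrophic by 0.72 ± 0.19 (adjusted p = 0.0175). Its adjusted p was 0.0749, 0.111, 0.0943 and 0.0685 without the round 1, round 2, hypertrophic 1 and hypertrophic 2 arrays, respectively. Without the round 3 array flat minus round passed as well (adjusted p = 0.0209). Of 10 tested genes listed as magnesium channels and carriers outside the family, 1 was called in any contrast, where 32.7% of all tested genes were. It was Magt1, which was 0.60 higher in the hypertrophic than in the round layer (adjusted p = 0.00666). Both tested vesicular and lysosomal anion carriers of the Slc17 family, Slc17a5 and Slc17a9, passed in no contrast.

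Markers listed for cells other than chondrocytes differed between the layers. Chondrocytes may also express some of them, such as Alpl of the osteoblast list, so their levels do not count those other cells. The summed signal of the 18 skeletal muscle markers ranged over 155638 to 254064 on the round arrays. It ranged over 367899 to 598416 on the flat arrays and 155035 to 367503 on the hypertrophic arrays. Of 8 tested osteoblast markers, 6 rose from round to flat, 6 rose from flat to hypertrophic and 0 fell in either step. Of 13 tested endothelial markers, 7 were higher and 1 lower in hypertrophic minus flat, with summed signals of 18832 to 21318 on the round, 15871 to 17932 on the flat and 22146 to 23768 on the hypertrophic arrays. Fibroblast and tendon markers went the other way, with 8 of 11 lower and 2 higher in the hypertrophic than in the round layer. With the muscle score as a covariate, which leaves 1 fewer residual degree of freedom, 19 of the 35 calls of a member in a contrast missed the threshold and 16 kept it. The score ran from -1.08 to -0.21 on the round arrays and from 0.42 to 1.50 on the flat arrays. Because it follows the layers, the covariate lowers the precision of the single steps. A threshold missed with it does not separate muscle from layer. The 2 calls kept among the single steps from round to flat were those of Slc20a1 and Slc40a1. Of the calls from flat to hypertrophic, that of Slc40a1 was kept. The adjusted p of the calls it ended ran from 0.0536 to 0.914. Of the 19 differences, 9 were larger with the covariate and 10 smaller, 4 of these by over 1.5 times. Hypertrophic minus flat went to 1.10 for Slc4a2, 1.28 for Slc30a1, 1.02 for Slc39a14, 0.57 for Slc39a13, 0.85 for Slc39a11 and -0.57 for Slc4a3. It went to 0.30 for Slc26a7, 0.16 for Slc11a1 and 0.85 for Slc39a8. Flat minus round went to 1.52 for Slc4a1, -1.08 for Slc30a1 and -0.77 for Slc4a2. Hypertrophic minus round went to 0.47 for Slc39a14 and 0.86 for Slc9a2. How far muscle or other cells account for any of these differences was not tested.

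**Figure D4:**
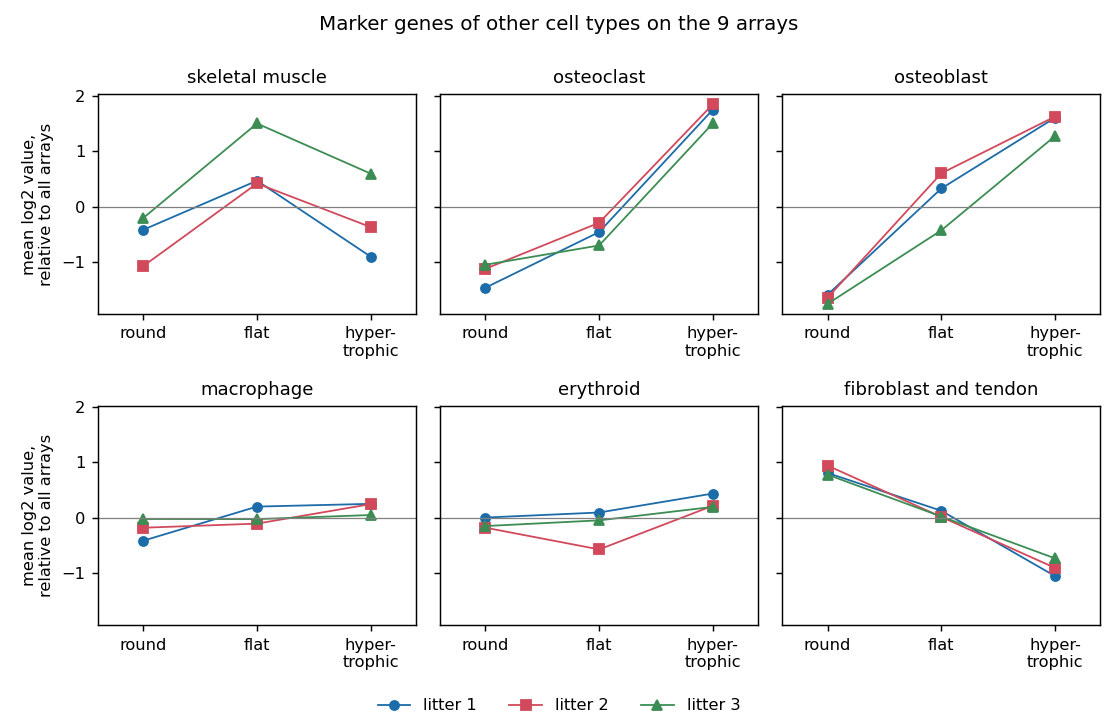
Mean log2 value of the marker genes of other cell types on each array, centred on the 9 arrays, by layer with 1 line per litter. The muscle panel peaks in the flat layer, at 1.50 for litter 3, and the osteoclast panel in the hypertrophic layer.

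Probe sets not chosen for a gene gave a second reading. For called members with further probe sets there were 36 pairs of another probe set and a called contrast, and 28 had the same sign. Among the 15 pairs whose other probe set lay above the filter, 15 had the same sign. The 8 of opposite sign were all below the filter and belonged to Slc20a1, Slc26a7, Slc4a1, Slc4a3, Slc12a5, Slc8a1, Slc30a1 and Slc39a14. The 40 untested members had layer means from 6.09 to 233, and 6 of them, Slc34a2, Slc26a11, Slc4a8, Slc9a5, Slc12a8 and Slc30a2, had a layer mean above the filter. Of the 48 tested, 44 were above it in all 3 layers and 4 in 2 layers. Those 4 were Slc9a2, Slc12a5 and Slc39a8, below it in the round layer, and Slc8a1, below it in the hypertrophic layer. Each was tested only through the layers where it was high, so its calls against its low layer are not independent of the filter.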

How the data were processed

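RNA of 9 samples, 3 for each of 3 layers, was hybridised to Affymetrix mouse arrays. The authors deposited MAS5 signal intensity values made with Affymetrix Expression Console, per the submitters' processing notes. Their versions are not given in the material used here. The deposited intensities of 45101 probe sets have the same trimmed mean, 500.003, on each array, so they were already scaled, and the array medians lay between 123 and 152. Neither scanner images nor detection calls were used. Of 45037 probe sets that are not controls, 34945 had 1 gene, 932 had several and 9160 had none, through the platform annotation with symbols updated by gene identifier.

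Signals were taken as log2(signal + 26), with a pseudocount at the 20th percentile of the table, so fold changes of weak genes are understated. Genes with a mean above 7.212 on that scale, 11313 of 18193, were fitted with limma 3.58.1 in R 4.3.3, with layer and a fixed block for litter and variances moderated along the mean (4 residual and 8.15 prior degrees of freedom). Adjusted p is Benjamini-Hochberg within a contrast. Standard errors of a log2 difference had a median of 0.179, and 3 arrays a layer limit the precision. The labels number biological replicates alike in each layer and say that each sample came from a single litter, with 3 litters in all, and the replicate number was read as the litter, which is an inference. Deviations of same-litter arrays from their layer means correlated with r of 0.167 to 0.517 in 9 pairs, against -0.434 to 0.0815 in 18 pairs of different litters. The script was tested on simulated data.

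The named genes are every member past the threshold in at least 1 contrast and a list of members with a textbook role in cartilage or bone, plus up to 4 genes of each pathway list. Members, gene lists and markers were chosen with earlier results of these data known. In all, 21 alternatives were run: the pseudocount, the filter, the scaling, the block, the variance trend, the probe set rule, a muscle score as a covariate and leaving out arrays. Promoters came from RefSeq tables on GRCm38.p6.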

Additional observations from a re-analysis of the deposited data

How the results depend on the processing

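No direction of the 35 calls of a member in a contrast turned in any of the 21 alternatives, and 9 calls passed the threshold in every alternative in which the gene was tested: Slc20a1 and Slc40a1 in 2 contrasts each, and Slc13a5, Slc39a11, Slc39a8, Slc8a1 and Slc8a3 in hypertrophic minus round. Of these genes, Slc39a8 was tested in 19 alternatives, Slc8a1 in 18 and the others in all 21. Leaving out 1 array ended 16 of the 35 calls, and the muscle covariate ended 19. Of 32 values of named members with no call, 19 changed sign in at least 1 alternative, so the sign printed for those 19 is not a direction. The others kept their sign in every alternative in which the gene was tested, and a kept sign is not a call.

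Members lower in flat minus round numbered 3, and 5 with 4 times the pseudocount or with median centring, and 1 with no replicate block, with the mean of a gene's probe sets or with the muscle covariate. Members higher there numbered 5, and 1 with the muscle covariate. Members higher in hypertrophic minus flat numbered 10, and 6 with the filter at the 75th percentile, 4 with the mean of probe sets and 0 with the muscle covariate, where limma gave 6 at an unadjusted p under 0.05. Members lower there numbered 2, and 1 with the mean of probe sets or the muscle covariate. Members higher in hypertrophic minus round numbered 11, and 6 with the stricter filter, while those lower numbered 4, and 1 with the mean of probe sets. The stricter filter and the mean of probe sets test fewer members.

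Over all tested genes, 1926 were called in flat minus round, 1283 in hypertrophic minus flat and 2840 in hypertrophic minus round. With no replicate block for the litter pairing the counts were 935, 553 and 1824, and 5 of 8, 9 of 12 and 12 of 15 of the members' calls in these contrasts were shared with the fit that has the block. With the muscle covariate they were 392, 194 and 2851. Leaving out 1 array at a time gave 1225 (without round 2) to 1956, 591 (without hypertrophic 1) to 1658 and 1770 (without hypertrophic 2) to 2924. The members lower in flat minus round then numbered 1 (without round 2 or flat 1) to 4, those higher in hypertrophic minus flat 6 (without flat 3 or hypertrophic 2) to 11, those lower there 1 to 2, and those higher in hypertrophic minus round 6 to 12. The cause of these changes was not tested. The calls of Slc4a1 and Slc4a2 in flat minus round and of Slc39a13 and Slc11a1 in hypertrophic minus flat were the least stable, missing the threshold in 13, 13, 14 and 12 alternatives.

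Genes near the filter, such as Slc8a1, Slc12a5, Slc9a2 and Slc39a8, have low signals, and their differences carry the largest errors among the called members. With 3 arrays a layer, a p that misses the threshold does not show that layers are alike.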
